A study of Mus musculus with 16 samples.

Results

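The TBC-domain RAB GAP genes were examined in RNA from the whole brain of mice with a Tecpr2 frameshift (Tecpr2 ki/ki) and of wt/wt controls. Members were taken by symbol and selected on the sum of their values. They were all genes of the Tbc1d series together with Tbck, Evi5, Evi5l, Rabgap1, Rabgap1l, Sgsm1, Sgsm2, Sgsm3, Usp6nl and Grtp1, provided that their deposited values summed to more than 16 over the 16 mice. Of 40 such symbols in the table, 39 met this limit, out of 55404 genes in all. Tbc1d21, known from testis, was the only symbol outside it, with values of 0 or 1 in every mouse and a sum of 9. The lowest sum inside the limit was 89, that of Tbc1d10c. The family was chosen with the fall of Tbc1d9b already known.

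RAB proteins are small GTPases that mark the membranes of the secretory, endosomal and autophagic pathways. They are active while they hold GTP. Many TBC-domain proteins switch RABs off by speeding up GTP hydrolysis, for which the domain supplies an arginine and a glutamine finger. Several TBC-domain proteins also bind LC3 and its relatives on autophagosomes. Whether each member acts as a GAP was not analysed here. TECPR2 itself binds ATG8 proteins and the HOPS tethering complex, which acts downstream of RAB7 on late endosomes and lysosomes.

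Libraries were made from 8 Tecpr2 ki/ki animals and 8 wt/wt animals, all of them untreated males aged 5 months, each with a library of its own. The knock-in animals carry the L1152fs frameshift knock-in on both alleles. The allele was made by gene editing in C57BL/6J zygotes, and the wt/wt mice carry the unedited gene. Tecpr2 itself lay at 274 to 320 in Tecpr2 ki/ki and at 928 to 1002 in wt/wt brains, so that no library went against its label. The deposited values are normalized per library and rounded, and their totals lay between 11964284 and 12252324. Whole numbers that never or too often occur in a library give away the factor it was divided by. By this estimate a ki/ki library held 9.23 to 14.3 M reads on genes and a wt/wt library 10.1 to 15.4 M reads. In whole brain, fewer cells of a type and less RNA per cell cannot be told apart.

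To compare levels between genes, values were divided by the length of all annotated exons of a gene, in units of 1000 bases. In wt/wt brains the family spanned from 290.8 ± 6.11 (SD, n = 8) per 1000 exon bases for Tbc1d9b to 1.45 ± 0.656 (SD, n = 8) for Tbc1d10c. Tbc1d10c encodes carabin, an inhibitor of calcineurin known from lymphocytes. Its transcripts share 32.3% of their 31-base words with other genes, and its exons share 1286 bases with AC109138.8 on the same strand. The effect of this sharing on its value was not tested. Tbc1d9b and Tbc1d9, which are paralogs, had the highest levels on this scale. Before division by length the highest value was that of Rabgap1l, with a wt/wt mean of 2633 ± 44.9 (SD, n = 8), whose annotated exons cover 23232 bases for 815 codons. They were followed by Sgsm1 at 189.4 ± 7.14 (SD, n = 8), Tbc1d10b at 158.5 ± 5.58 (SD, n = 8) and Tbc1d30 at 142.4 ± 7.54 (SD, n = 8) per 1000 exon bases. SGSM1 binds RAB9 on the route between endosomes and Golgi, TBC1D10B acts on RAB35, and TBC1D30 has been linked to RAB8 and the cilium. At the other end of the order, Grtp1 stood at 13.4 ± 1.53 (SD, n = 8) and Tbc1d2 at 9.45 ± 1.503 (SD, n = 8) per 1000 exon bases. Below the leading genes the order was not sharp. Of the 38 pairs of neighbours in it, 31 had overlapping ranges over the 8 wt/wt brains. The pairs whose ranges were apart included those at the top of the order, Tbc1d9b and Tbc1d9, Tbc1d9 and Sgsm1, and Sgsm1 and Tbc1d10b.

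**Figure D1:**
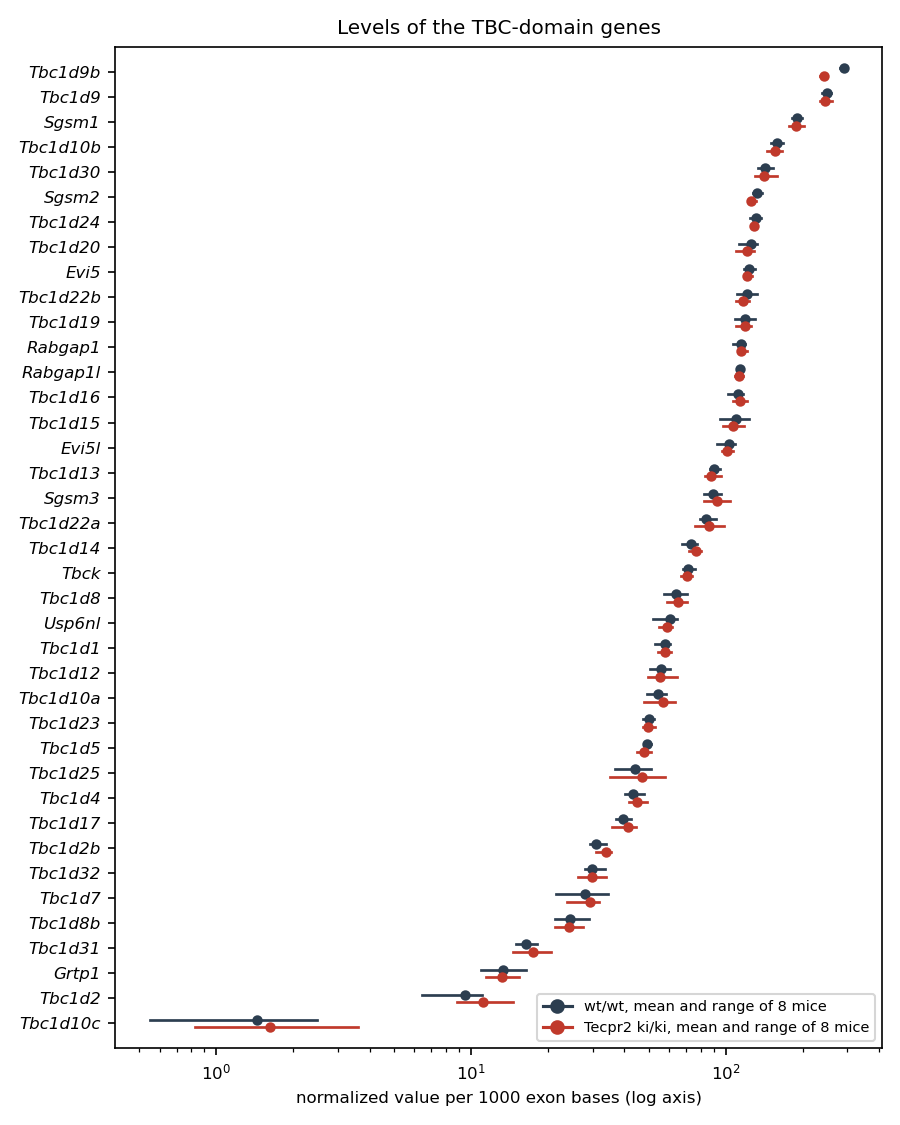
Normalized value per 1000 exon bases (log axis) of the 39 TBC-domain genes, ordered by their mean in wt/wt brains. Points are means and bars the range of 8 mice per genotype. Tbc1d9b and Tbc1d9 have the highest levels and Tbc1d10c the lowest. Of all members only Tbc1d9b, whose fall was known beforehand, has ranges that do not overlap between the genotypes, beside 0.086% of all genes tested.

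Between the genotypes, 1 of the 38 members tested was called, and this was Tbc1d9b, which fell to 83.4% of its wt/wt mean. The test was limma's on log2(value + 1), fitted on all 23244 genes with enough signal and adjusted over all of them by the Benjamini-Hochberg method, with a threshold of 0.1. At this threshold 0.133% of all genes tested were called, 0.0946% higher and 0.0387% lower. At an unadjusted p under 0.05, Tbc1d2b and Tbc1d2 were higher and Tbc1d9b and Sgsm2 lower, which is 10.5% of the members beside 6.08% of all genes tested. This share counts Tbc1d9b, whose fall was known beforehand. Without it, 2 of 37 members were higher, beside 3.07% of all genes tested, and 1 was lower, beside 3.01%. The remaining members had small differences. A log2 fold change within 0.1 of zero was found for 35 of the 38, with 16 members higher and 22 lower in ki/ki brains. The median log2 fold change was -0.01 over the members and -0.00098 over all genes tested. For 30 members the 95% confidence interval lay entirely between -0.2 and 0.2 on the log2 scale. The intervals of the others reached past one of these bounds, and that of Tbc1d9b lay wholly below -0.2. Tbc1d10c was the 1 member that was not tested, because it exceeded a value of 5 in fewer than 4 mice of either genotype. Its values ran from 3 to 13 (median 4) in ki/ki and from 2 to 9 (median 5) in wt/wt brains.

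**Figure D2:**
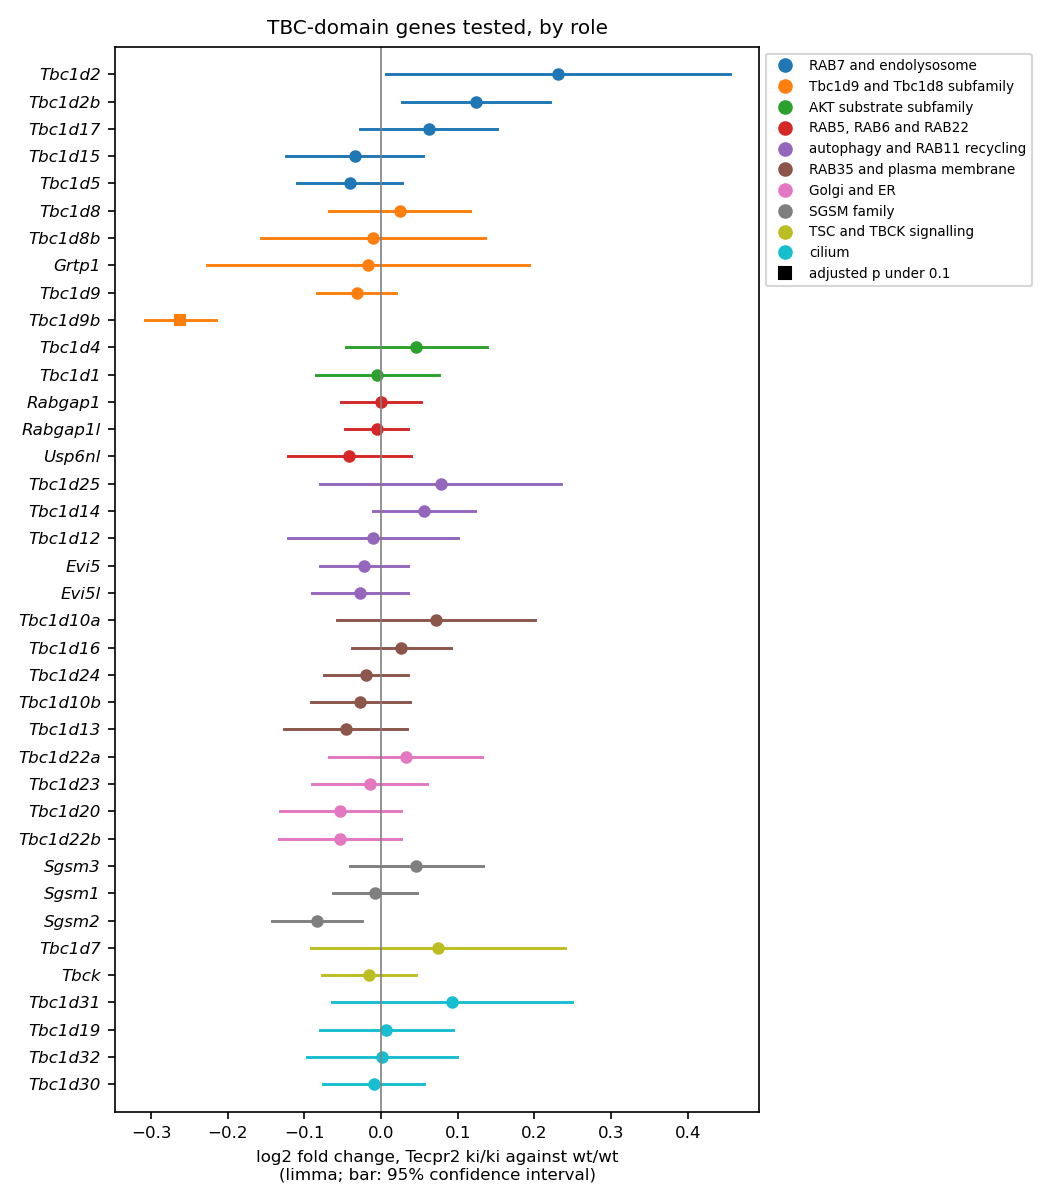
Log2 fold change of the 38 members tested, ki/ki against wt/wt, with the 95% confidence interval from limma as a bar and the role of each gene as its colour. The square marks Tbc1d9b, the member with an adjusted p under 0.1, at -0.26, and 35 of the 38 points lie within 0.1 of zero.

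Tbc1d9b (ENSMUSG00000036644) encodes a GAP for RAB11A, the RAB of recycling endosomes. In GRCm38, a build earlier than the GRCm39 of the authors' alignment, it lies on the plus strand of chromosome 11 from 50131396 to 50172785. Its longest annotated coding transcript has 22 exons and 1263 codons, the stop codon not counted. Tecpr2 lies on a different chromosome. The values of Tbc1d9b in ki/ki brains 1 to 8 were 1569, 1561, 1598, 1596, 1502, 1544, 1579 and 1523. In wt/wt brains 1 to 8 they were 1862, 1843, 1890, 1918, 1923, 1807, 1847 and 1867. Every ki/ki mouse was therefore below every wt/wt mouse. Over all genes tested, 0.086% had no overlap between the genotypes. The mean was 1559 ± 34.2 (SD, n = 8) in ki/ki against 1869.6 ± 39.3 (SD, n = 8) in wt/wt brains. The log2 fold change of -0.26 had a standard error of 0.0232, a 95% confidence interval from -0.31 to -0.22 and a Benjamini-Hochberg adjusted p of 2.98e-13 in limma. Because the family was named for this fall, the p-value is no independent evidence of it.

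The spread of Tbc1d9b between mice was narrow. Its coefficient of variation was 2.19% in ki/ki against 2.10% in wt/wt brains. The variance within a genotype was 0.793 times that expected from counting reads alone. Over the 38 members tested this ratio had a median of 1.23 and ranged from 0.648 to 3.02, with 26 members under 1.5, so that for most members counting error made up most of the spread between mice. The highest ratio was that of Tbc1d30. No 31-base word of Tbc1d9b transcripts occurred in the annotated transcripts of another gene, and no annotated exon of another gene overlapped its exons. The antisense gene Gm12195 lies within an intron of Tbc1d9b on the opposite strand and had a mean value of 8.81 over the 16 mice.

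In its neighbourhood on chromosome 11, Tbc1d9b, chosen for its fall, was the only gene called, beside 0.133% of all genes tested. Among the 5 nearest genes tested on either side, the log2 fold changes ranged from -0.33 for Gm12195 to 0.17 for Mrnip, both of them genes with low values. The smallest unadjusted p of these 10 genes was 0.0820 and the smallest adjusted p 0.875 (limma, Benjamini-Hochberg). The abundant neighbours had fold changes near zero. Rnf130, which encodes a ubiquitin ligase, had 0.02 (standard error 0.0226), and Sqstm1, the autophagy receptor gene on the other side of Tbc1d9b, had -0.01 (standard error 0.0218) on the log2 scale. Mapk9, farther out on the side of Rnf130, had -0.03 (standard error 0.0216).

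**Figure D3:**
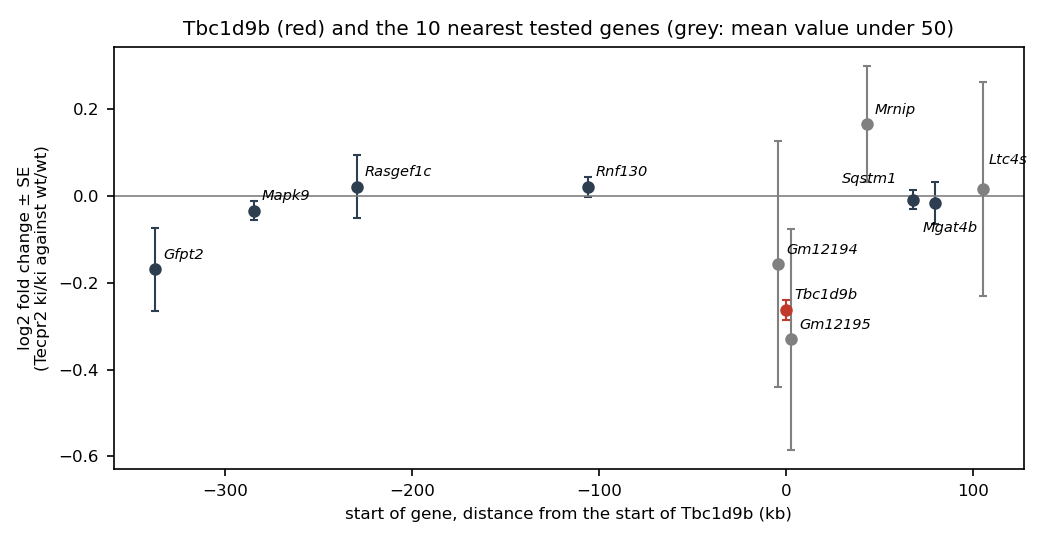
Log2 fold change with its standard error for Tbc1d9b (red) and the 10 nearest tested genes, against the distance of each gene's start from that of Tbc1d9b in kb (GRCm38). Genes with a mean value under 50 are grey. Tbc1d9b lies at -0.26 with a narrow error, while the abundant neighbours Rnf130 at 0.02, Sqstm1 at -0.01 and Mapk9 at -0.03 lie near zero.

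The closest paralog, Tbc1d9 (ENSMUSG00000031709), encodes a calcium-binding protein linked to TBK1 activation in selective autophagy. Its longest coding transcript has 1264 codons. Its values ran from 1378 to 1535 (median 1430) in ki/ki and from 1398 to 1518 (median 1474) in wt/wt brains. These ranges overlapped almost entirely. The log2 fold change of Tbc1d9 was -0.03 (standard error 0.0257, 95% confidence interval -0.08 to 0.02, limma with Benjamini-Hochberg adjusted p = 0.907). The value of Tbc1d9b divided by that of Tbc1d9 lay between 1.02 and 1.13 in the 8 ki/ki brains and between 1.20 and 1.38 in the 8 wt/wt brains. Tbc1d9b was thus above Tbc1d9 in every mouse of both genotypes before correction for length, and the ratio did not overlap between them. Per 1000 exon bases, the mean in ki/ki brains was 242.5 for Tbc1d9b and 244.8 for Tbc1d9, so that on this scale the lead of Tbc1d9b seen in wt/wt brains was absent. Since Tbc1d9b was chosen for its fall, the ratio is given without a test.

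Of the 5 genes in this subfamily, Tbc1d9b alone had an unadjusted p under 0.05, beside 6.08% of all genes tested. The family was chosen with the fall of this gene known. Tbc1d8 had values from 307 to 370 (median 343) in ki/ki and from 300 to 370 (median 332.5) in wt/wt brains, and its log2 fold change was 0.02 (95% confidence interval -0.07 to 0.12). Tbc1d8b, on the X chromosome, encodes a RAB11-binding protein mutated in nephrotic syndrome. It ranged from 111 to 144 (median 129) against 111 to 152 (median 126). Grtp1, named for its response to growth hormone, ranged from 47 to 63 (median 54) against 45 to 67 (median 55). The genotypes overlapped in all of these genes. The 95% confidence interval was widest for Grtp1, from -0.23 to 0.19 on the log2 scale. For Tbc1d8b it ran from -0.16 to 0.13. Exons of Tbc1d8 share 420 bases with the ribosomal protein gene Rpl31 and exons of Grtp1 share 249 bases with Lamp1, in both cases on the opposite strand. Whether the authors' counting used the strand is not given in the sources used here.

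Summed over the 39 members per 1000 exon bases, the family had a level between 3301 and 3398 in ki/ki and between 3382 and 3469 in wt/wt brains. Without Tbc1d9b the range was 3068 to 3150 in ki/ki and 3092 to 3175 in wt/wt brains. Tbc1d9b made up between 7.05% and 7.35% of the sum in ki/ki and between 8.29% and 8.74% in wt/wt brains. Each of the other 37 members tested had an adjusted p above 0.1.

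GAPs of RAB7 and the endolysosome form the group closest to the HOPS complex. Of its 5 genes, 2 were higher at an unadjusted p under 0.05, beside 3.07% of all genes tested, and none had an adjusted p under 0.1. The median log2 fold change of the group was 0.06. Tbc1d2b (ENSMUSG00000037410) had values of 300, 273, 289, 304, 303, 288, 311 and 311 in ki/ki brains 1 to 8. In wt/wt brains 1 to 8 it had 264, 268, 297, 294, 281, 257, 258 and 265. In 5 of the 8 ki/ki brains the value was above that of all wt/wt brains, and the ranges overlapped through the others. The mean was 297 ± 13.1 (SD, n = 8) in ki/ki against 273 ± 15.7 (SD, n = 8) in wt/wt brains. This gave a log2 fold change of 0.12 (standard error, SE, 0.0481, by limma an unadjusted p = 0.0124 and a Benjamini-Hochberg adjusted p = 0.664).

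Its paralog Tbc1d2 (ENSMUSG00000039813), or Armus, links RAC1 to the switching off of RAB7. It had values from 48 to 79 (median 61.5) in ki/ki and from 35 to 60 (median 53) in wt/wt brains. Of the ki/ki brains, 4 lay above the wt/wt range. The mean was 60.25 ± 9.996 (SD, n = 8) in ki/ki against 51.25 ± 8.15 (SD, n = 8) in wt/wt brains. On the log2 scale the fold change was 0.23 (SE 0.112, by limma an unadjusted p = 0.0444 and a Benjamini-Hochberg adjusted p = 0.820). The unadjusted p was just under 0.05 and did not stay there when some of the mice were left out singly. When ki/ki mouse 1, 3, 4, 5 or 6 was left out, or else mouse 5, 6 or 7 of the wt/wt group, the unadjusted limma p of Tbc1d2 lay between 0.0520 and 0.163. The log2 fold change was lowest, at 0.16, without wt/wt mouse 6.

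The other 3 genes of the group went in both directions. Tbc1d17 had values from 347 to 433 (median 412.5) in ki/ki and from 360 to 413 (median 380) in wt/wt brains, a log2 fold change of 0.06 (95% confidence interval -0.03 to 0.15). Its annotated exons share 3423 bases with Il4i1 on the opposite strand. Without ki/ki mouse 5 the unadjusted limma p of Tbc1d17 was 0.0428, and in the other alternatives it was above 0.05. Tbc1d15, whose product is recruited to mitochondria and removes active RAB7 there, ranged from 414 to 501 (median 460.5) against 404 to 523 (median 468.5). Tbc1d5, which binds the retromer coat of endosomes, ranged from 597 to 678 (median 633.5) against 634 to 680 (median 650), and 4 of the 8 ki/ki brains were below all wt/wt brains. The log2 fold change was -0.03 for Tbc1d15 (95% confidence interval -0.12 to 0.06) and -0.04 for Tbc1d5 (95% confidence interval -0.11 to 0.03).

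Most markers of microglia and astrocytes were higher in ki/ki brains in the same libraries, and the markers of choroid plexus were lower. Of 8 microglia markers, 7 had a positive log2 fold change, 5 with an unadjusted p under 0.05 and 2 (C1qa and Mpeg1) called by limma. Their summed value lay between 2409 and 2541 in ki/ki and between 2126 and 2358 in wt/wt brains. The summed value of 6 astrocyte markers lay between 18495 and 19458 against 16763 and 18379, with Gfap (log2 fold change 0.58) and Aqp4 (0.14) called. Of these 6, 5 were higher, 3 at an unadjusted p under 0.05, and their median log2 fold change was 0.04. Aldh1l1 (0.04), Aldoc (0.04), Slc1a3 (0.03) and Gja1 (-0.0048) were near zero. The 6 neuronal markers summed to between 51346 and 53781 against 51370 and 55284. Their median log2 fold change was -0.04, with 5 of 6 lower, 2 at an unadjusted p under 0.05 and none called, beside -0.26 for Tbc1d9b. The sums of 6 oligodendrocyte markers (45247 to 51491 against 45495 to 51057) and 4 endothelial markers (1697 to 1841 against 1706 to 1826) overlapped widely. The 4 choroid plexus markers summed to between 4164 and 4785 in ki/ki and between 4654 and 5290 in wt/wt brains. All 4 were lower, 2 at an unadjusted p under 0.05 and none called, with a median log2 fold change of -0.08. Over all genes tested, 3.07% were higher and 3.01% lower at an unadjusted p under 0.05, and 0.0946% were called higher. No marker of these 6 lists was at 0 in all mice. The part of glial, neuronal and choroid plexus RNA in the values of Tbc1d2b, Tbc1d2 and Tbc1d9b was not tested.

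**Figure D4:**
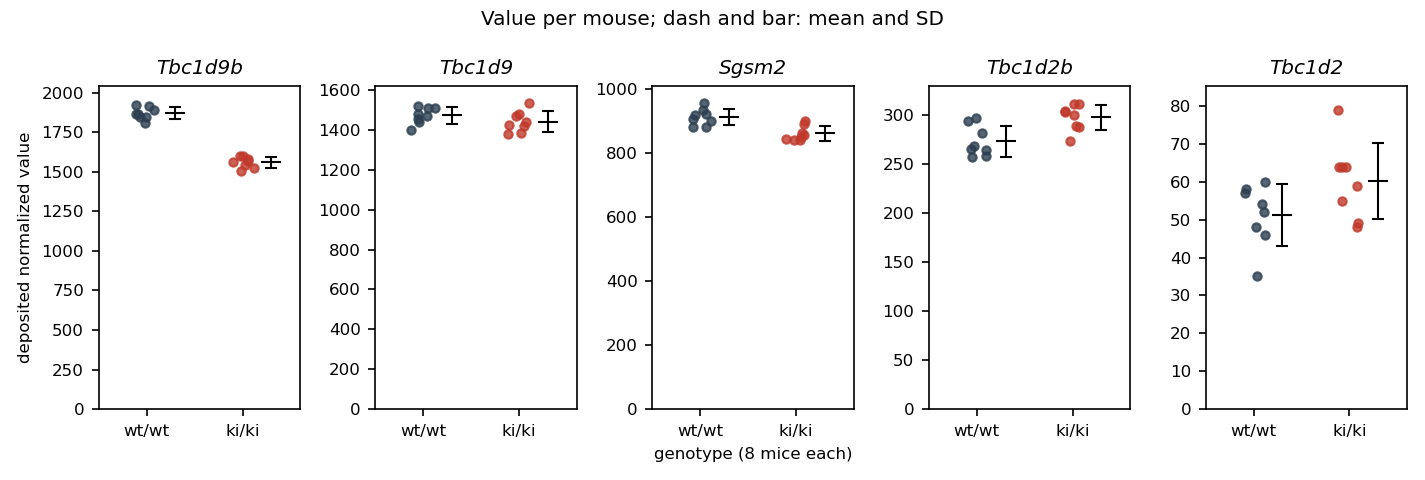
Deposited normalized value of Tbc1d9b, its paralog Tbc1d9, and the other members with an unadjusted p under 0.05, one point per mouse (8 per genotype), with mean and SD at the side. Tbc1d9b lies between 1502 and 1598 in ki/ki and between 1807 and 1923 in wt/wt brains, whereas the genotypes overlap for the other 4 genes.

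SGSM proteins carry a RUN domain beside the TBC domain, and some of them bind RAB9. Sgsm2 (ENSMUSG00000038351), whose product acts on RAB32 and RAB33B in vitro, was the 1 member other than Tbc1d9b that was lower at an unadjusted p under 0.05, beside 3.01% of all genes tested. Its values were 858, 841, 850, 892, 841, 864, 902 and 845 in ki/ki brains 1 to 8 and 956, 900, 883, 935, 919, 882, 924 and 907 in wt/wt brains 1 to 8. All but 2 of the ki/ki brains were below the wt/wt range. The mean was 862 ± 23.4 (SD, n = 8) in ki/ki against 913 ± 25.5 (SD, n = 8) in wt/wt brains. The log2 fold change was -0.08 (SE 0.0293, by limma an unadjusted p = 0.00568 and a Benjamini-Hochberg adjusted p = 0.532). Sgsm1 ranged from 1322 to 1506 (median 1410.5) in ki/ki and from 1354 to 1479 (median 1408.5) in wt/wt brains, with a log2 fold change of -0.01 (95% confidence interval -0.06 to 0.05).

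The group of autophagy and RAB11 recycling had 5 genes and a median log2 fold change of -0.01. None of them had an unadjusted p under 0.05, beside 6.08% of all genes tested. Tbc1d14, which binds RAB11 and the TRAPPIII complex and restrains autophagosome formation, came nearest. Its values ran from 705 to 782 (median 748) in ki/ki and from 657 to 758 (median 729) in wt/wt brains, and 4 of the 8 ki/ki brains were above the wt/wt range. The log2 fold change of Tbc1d14 was 0.06 (95% confidence interval -0.01 to 0.12, limma with unadjusted p = 0.0983). Its paralog Tbc1d12 ranged from 208 to 270 (median 228.5) against 212 to 254 (median 233). Tbc1d25, an X-linked gene whose product acts on RAB33B at the autophagosome, ranged from 98 to 161 (median 130.5) against 103 to 142 (median 125). With a log2 fold change of 0.08 and a 95% confidence interval from -0.08 to 0.24, Tbc1d25 was measured less precisely than the more abundant members. Evi5, a RAB11-binding gene of the cell cycle, ranged from 948 to 1017 (median 969.5) against 950 to 1044 (median 992), and Evi5l from 821 to 910 (median 861) against 790 to 926 (median 885.5). Their 95% confidence intervals were -0.08 to 0.04 for Evi5 and -0.09 to 0.04 for Evi5l on the log2 scale. Transcripts of Evi5 share 9.16% of their 31-base words with other genes, and exons of Evi5l share 489 bases with Prr36 on the opposite strand.

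In the other groups no member had an unadjusted p under 0.05, beside 6.08% of all genes tested. Of the 5 tested genes of RAB35 and the plasma membrane, which include Tbc1d24, an epilepsy gene, 2 were higher and 3 lower, with log2 fold changes from -0.05 to 0.07. The abundant Tbc1d10b had values from 678 to 777 (median 732) in ki/ki and from 708 to 784 (median 742) in wt/wt brains, with a 95% confidence interval from -0.09 to 0.04. For 4 genes of Golgi and ER, among them the RAB1 and RAB18 GAP gene Tbc1d20, the range was -0.05 to 0.03. For the 3 genes that act on RAB5, RAB6 or RAB22, Usp6nl, Rabgap1 and Rabgap1l, it ran from -0.04 to close to zero. Tbc1d1 and Tbc1d4, the AKT substrates that control glucose transporter traffic, had -0.0048 and 0.05. Tbck and Tbc1d7, a subunit of the TSC complex upstream of mTORC1, had -0.02 and 0.07. The 4 genes linked to the cilium had -0.01 to 0.09. Among these, Tbc1d30 ranged from 874 to 1064 (median 943) in ki/ki and from 896 to 1030 (median 964.5) in wt/wt brains.

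The TBC genes were set beside the other regulators of the RAB cycle. These were the GEFs that load RABs with GTP, the GDI and REP escorts, the geranylgeranyl transferase, and the RAB3 GAP, which has no TBC domain. Of 59 such genes listed, 58 were matched and tested, and at an adjusted p of 0.1 (limma) none was called. At an unadjusted p under 0.05, 2 of the 58 were higher, beside 3.07% of all genes tested, and 2 were lower, beside 3.01%, which is near the background. The median log2 fold change was -0.0044. The lower ones were Gdi2, an escort of inactive RABs (log2 fold change -0.05), and Rab3gap1, the catalytic subunit of the RAB3 GAP. Rab3gap1 had a mean of 1087 ± 37.3 (SD, n = 8) in ki/ki against 1149.9 ± 34.1 (SD, n = 8) in wt/wt brains. This was a log2 fold change of -0.08 (SE 0.0278, by limma an unadjusted p = 0.00454 and a Benjamini-Hochberg adjusted p = 0.513). The higher ones included Rin3, a GEF of RAB5 with a log2 fold change of 0.26 and low means of 51.9 in ki/ki and 43.6 in wt/wt brains.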

How the data were processed

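Total RNA of whole brain was depleted of ribosomal RNA and made into stranded libraries, 1 per mouse, so that replicates were separate mice. Per the study's methods, the authors trimmed reads with Trim Galore 0.6.10 and cutadapt 3.4, aligned them to GRCm39 with STAR 2.7.10b and counted them per gene. The deposited values are a score, namely counts normalized between libraries and rounded to whole numbers by the authors, and the scaling method is not given in the sources used here. The table and the 16 files of single mice held identical values. Since these values are no raw counts, the study's count test (DESeq2 1.40.2) was not run, and limma 3.58.1 in R 4.3.3 (linear fit, moderated with variance trend and robust option, two-sided) was used on log2(value + 1), which understates the fold changes of low genes. The test took in genes with a sum of values above 16 over all mice and with more than 5 in 4 or more mice of one genotype. Intervals are 95% intervals from this fit. Exon lengths, overlaps and shared 31-base words came from the GENCODE annotation and transcripts of GRCm38, in which the union of exons includes retained introns. The log2 fold changes are Tecpr2 ki/ki over wt/wt. For any pair of mice, the squared difference over its counting variance had a median 1.35 to 2.08 times that of counting noise (13759 genes). No library was therefore counted as a repeat.

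Genes named were Tbc1d9b, every member with an unadjusted p under 0.05, all members of the Tbc1d9 and Tbc1d8 subfamily, of the RAB7 and endolysosome group and of the autophagy and RAB11 group, the 5 highest and the 3 lowest by level, and those beside the value limit. The other genes named illustrate counts or ranges and were chosen after their values were seen. The members, the groups by role and the other lists were chosen with earlier results of these data known. Alternatives covered the value added before log2, the low-value filter, the scaling of libraries, the variance model, a replicate block and each mouse left out. Protein features of the members were not analysed here. A result on a further gene of the RAB cycle list is not reported here.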

Additional observations from a re-analysis of the deposited data

Results flagged for a closer look

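A single mouse stood apart from the other 7 of its genotype for 5 members, by Dixon's test at its 95% critical value, among 78 groups of 8 mice tested. Chance flags about 5% of such groups. Evi5l had 790 in wt/wt mouse 6 and between 865 and 926 in the others. Usp6nl had 418 in wt/wt mouse 5 and between 481 and 516 in the others. Tbc1d22a had 313 in the same mouse and between 272 and 291 in the others. Tbc1d32 had 354 in wt/wt mouse 8 and between 296 and 321 in the others. Tbc1d13 had 453 in Tecpr2 ki/ki mouse 3 and between 390 and 418 in the others. Neither Tbc1d9b nor another member with an unadjusted p under 0.05 was among them.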

How the results depend on the processing

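Tbc1d9b kept its call in all 25 alternatives run, with log2 fold changes from -0.27 to -0.25 and adjusted p-values from 4.93e-14 to 6.03e-05 (limma), and it was the 1 member called in each of them. The number of members higher at an unadjusted p under 0.05 was 2, and it fell to 1 without the variance trend. In that fit Tbc1d2 had an unadjusted limma p of 0.0658. Leaving out single mice, the number lay between 1 and 2. Among the 19 named members whose fold changes were followed across the alternatives, 5 changed direction when a mouse was left out, all of them with log2 fold changes close to zero. The log2 fold changes of these 5 ran from -0.0384 to 0.0260 for Tbc1d8b and from -0.0555 to 0.0251 for Grtp1. They ran from -0.0419 to 0.0117 for Tbc1d12, from -0.0220 to 0.0048 for Sgsm1 and from -0.0330 to 0.0075 for Tbc1d30. Directions of the members outside these 19 were not followed. Over all genes, 31 were called, against 20 with no filter on low values and 15 without the variance trend. The cause was not tested. With the replicate number of the labels as a block, 46 genes were called in all, 1 member was called and Tbc1d9b had a log2 fold change of -0.26 (limma, adjusted p = 2.87e-12). Whether equal numbers mark paired mice or a shared batch was not tested. The correlation of deviations ran from -0.04 to 0.15 over the 8 same-numbered pairs and exceeded 0.1 in 1 of them. Among the 8 mice of the other genotype, 5 of 16 mice correlated best with the one of their own number. Read depth limits the low members most, such as Grtp1, Tbc1d2 and Tbc1d10c.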
